A study of Sus scrofa with 12 samples.

Results

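Porcine subcutaneous preadipocytes transfected with an siRNA against GPR124 and differentiated to day 4 were compared with cells transfected with a control siRNA and differentiated in the same way. The comparison rests on 6 of the 12 arrays of the series, 3 per group, chosen by the siRNA named in the sample titles, and on the log2 ratio of Cy3 over Cy5 at each of 43221 probes. The question was how far the differentiation response was reduced under GPR124 siRNA, and whether the reduction depended on the size of the response or on the expression level of the transcript.

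Every array carried 2 RNAs. Cy3 marked RNA of transfected, differentiated cells, and Cy5 marked RNA of preadipocytes taken at day 0 that were neither transfected nor differentiated, so a positive log ratio means more transcript in the differentiated cells. The control cells received AllStars Negative Control siRNA (QIAGEN) and the GPR124 cells an siRNA designed by SIGMA. The other 6 arrays came from cells given F2RL2 siRNA (spelt R2RL2 in 1 label field; the titles' spelling is used) or LGR4 siRNA, 3 arrays each. All cells, reference included, were labelled as female pre-adipocytes of subcutaneous tissue, and their age is not given in the labels. All 4 groups were differentiated in high-glucose medium with 10% serum, insulin (5 µg/ml), dexamethasone (0.25 µM), biotin (33 µM), pantothenate (17 µM) and octanoate (5 mM), and 400 ng of RNA was labelled per dye. Each target was addressed by the 1 siRNA reagent the labels name, dyes were not swapped, and the reference was untransfected, so the log ratio holds differentiation, transfection and dye together. The labels do not say whether the 3 arrays of a group came from separate cultures, so the tests measure how far the arrays of a group spread, and that spread may be technical.

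GPR124, also called ADGRA2, is an adhesion G-protein-coupled receptor that acts with the membrane protein RECK to pass on Wnt7 signals through Frizzled receptors and beta-catenin. Preadipocytes become fat cells under insulin, glucocorticoid and fatty acid through a cascade of transcription factors with PPARG and C/EBP proteins at its centre, while genes of the undifferentiated state are shut down. Wnt signalling through beta-catenin is known to restrain this cascade. In RNA from whole cultures, fewer differentiated cells and less transcript per cell cannot be told apart.

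No probe could be paired with a gene (0 of 43221 identifiers matched the gene tables), so the level of GPR124 itself, adipocyte markers and other cell type markers were not analysed here and probes are described by their behaviour. The arrays of the 2 groups lay on separate slides, control on slide 1 and GPR124 on slide 3, so slide and siRNA cannot be told apart. F2RL2 siRNA replicate 1 lay on slide 1, LGR4 siRNA replicate 3 on slide 3 and the other F2RL2 and LGR4 arrays on slide 2. The GPR124 arrays had 23594 to 26485 probes well above background in Cy5 against 31024 to 32394 on the control arrays, which did not overlap, and 24720 to 29243 against 27810 to 28372 in Cy3, which did. They also had 154 to 280 spots marked as outliers against 1 to 2, and 10 to 12 of 153 negative control spots well above background against 2 to 3. On LGR4 siRNA replicate 3, the other array on slide 3, these were 335 and 17, with 30609 probes well above background in Cy5. The slope of the log ratios of 10 spike-in transcripts against the mean of the control arrays was 0.983 to 1.01 on GPR124 arrays and 0.992 to 1.01 on control arrays, and no spot was saturated. Their mean shift from that control mean was -0.43, -0.29 and -0.36 on GPR124 replicates 1 to 3. On control replicates 1 to 3 it was 0.38, -0.41 and 0.025. F2RL2 siRNA replicate 3 had a median net Cy5 signal of 75 at negative control spots, against 5 to 8 on the other arrays. It had 27003 probes well above background in Cy5. The number of arrays limits the precision of all values.

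The GPR124 and control arrays differed at many probes. Of 32344 probes tested, 7266 were higher and 5482 lower under GPR124 siRNA (limma, Benjamini-Hochberg adjusted p under 0.05), which is 22.5% and 16.9%, or 39.4% in all. Median centring instead of loess shifted the median difference of all probes from 0.026 to 0.11, and 73.8% of the called probes were then higher against 57.0% after loess, while in Cy3 alone 47.4% were. A fit with slide as a block called 2628 probes, 2552 of them also called without it, with a median standard error of 0.22 against 0.097.

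To ask what happened to the differentiation response, probes were sorted by their mean log ratio on the 6 F2RL2 and LGR4 siRNA arrays, whose log ratios enter neither group mean (they do enter the limma fit's estimate of the spread, and with the GPR124 and control arrays alone in the fit 12525 probes were called). A probe was termed induced at a mean of at least 1, that is 2-fold, repressed at -1 or below, and flat within 0.5 of 0. Of the 6 arrays that set these classes, only LGR4 siRNA replicate 3 shared a slide with the GPR124 arrays. F2RL2 siRNA replicate 1 shared the slide of the control arrays. Slide can therefore enter the classes, and its effect on them was not tested other than by leaving out 1 array at a time. For each array, the mean log ratio over the probes of a class was divided by the mean of the control arrays, which gives the share of the control log ratio kept. A share of 1 is the control response and 0 is no difference from undifferentiated cells. With 3 arrays against 3, the 2-sided exact permutation test over arrays cannot give a p below 0.1, so no class value can pass 0.05.

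The 1087 induced probes had a mean log ratio of 1.54, 1.56 and 1.53 on control siRNA replicates 1 to 3 and of 1.00, 1.11 and 0.93 on GPR124 siRNA replicates 1 to 3. The 3 GPR124 arrays lay below all control arrays and spread more widely, with an SD of 0.095 against 0.012. They kept 0.649, 0.722 and 0.600 of the control log ratio, a mean share of 0.657 ± 0.061 (SD, n = 3; exact permutation p = 0.1). The 1430 repressed probes had a mean of -1.71, -1.80 and -1.70 on the control arrays and of -1.34, -1.22 and -1.17 on the GPR124 arrays. Again the groups did not overlap, and the share kept was 0.715 ± 0.050 (SD, n = 3; exact permutation p = 0.1). Replicate 2 kept most of the induction and replicate 1 most of the repression, so no GPR124 array was nearest to control on both sides. Over the 24321 flat probes the groups differed by 0.015 on the log2 scale. Loess centres the log ratios of each array, so this value is in part built in. With median centring the 21156 flat probes differed by 0.059.

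Probe by probe, 59.4% of the induced probes (646) were called lower and 14.4% (157) higher, against 16.9% and 22.5% of all probes tested, and 284 did not pass. Among the repressed probes, 66.2% (946) were called higher and 8.25% (118) lower, with 366 not passing. Of the flat probes, 14.2% were called lower and 19.1% higher. The median log2 difference was -0.51 over the induced, 0.50 over the repressed and 0.026 over all tested probes.

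**Figure D1:**
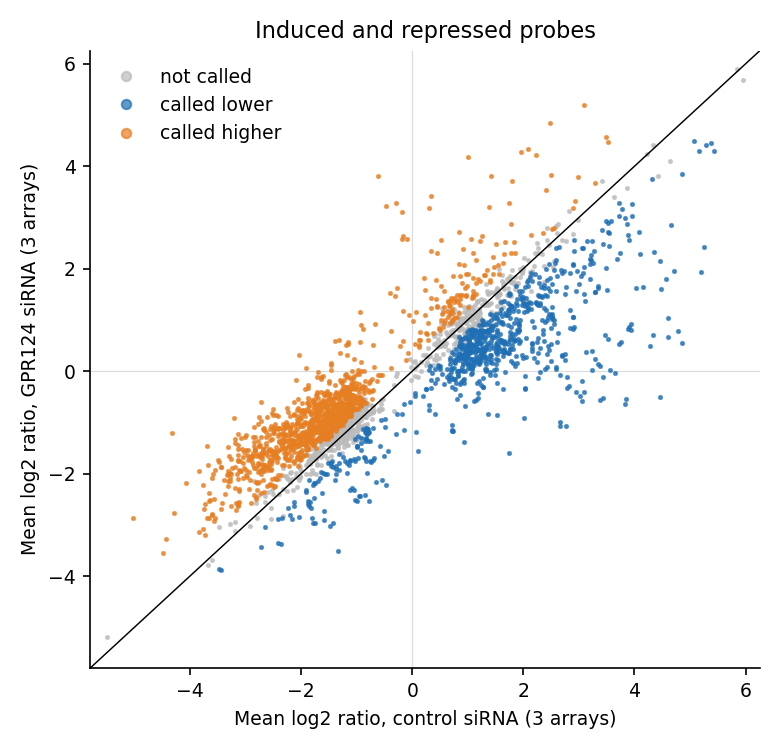
Each point is 1 induced or repressed probe, with its mean log2 ratio under control siRNA on the x axis and under GPR124 siRNA on the y axis (3 arrays each; the line marks equal values). Blue points were called lower and orange points higher (limma, adjusted p under 0.05): on the induced side 646 of 1087 probes lie below the line as called lower, and on the repressed side 946 of 1430 lie above it as called higher.

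Fewer probes reached a 2-fold ratio on each GPR124 array. Of the 1087 induced probes, 728, 751 and 720 had a log ratio of at least 1 on the control arrays and 447, 521 and 432 on the GPR124 arrays. Of the 1430 repressed probes, 1237, 1302 and 1237 were at -1 or below on the control arrays, and 960, 858 and 819 on the GPR124 arrays. Neither count overlapped between the groups. Over all probes, however, the number at -1 or below was 1797, 1954 and 1832 against 1868, 1585 and 1747, so those counts did overlap. Part of this total came from other probes: among the flat probes, 312 had a mean of -1 or below under GPR124 siRNA and 107 under control siRNA, with 44 in common. On the induced side, 824 probes reached a mean of 1 under GPR124 siRNA and 1171 under control siRNA. The 426 in common were 51.7% of the GPR124 list and 36.4% of the control list. On the repressed side, the 1058 probes in common were 62.9% of the 1681 under GPR124 siRNA and 57.7% of the 1835 under control siRNA.

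The reduction was then followed across the size of the response. Moderately induced probes, with a mean of 1 to 2 on the other siRNA arrays (851 probes), went from 1.27 ± 0.011 in control to 0.77 ± 0.093 under GPR124 siRNA, a share of 0.608 ± 0.073. Strongly induced probes, at 2 or more (236 probes), went from 2.54 ± 0.019 to 1.89 ± 0.11, a share of 0.744 ± 0.042. The log2 difference was thus somewhat larger in the strongly induced probes, -0.65 against -0.50, while the share kept was higher. On each GPR124 array the strongly induced probes kept more than the moderately induced ones, by 0.152, 0.098 and 0.159, against -0.0037 to 0.0072 on the control arrays (mean 0.136 ± 0.033, SD, n = 3; exact permutation p = 0.1). 

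On the repressed side the order was the opposite and the gap smaller. Moderately repressed probes (1127) kept 0.733 ± 0.049 and strongly repressed probes (303) 0.679 ± 0.051, with log2 differences of 0.39 and 0.87. The strongly repressed probes kept less than the moderately repressed ones on each GPR124 array, by -0.054, -0.046 and -0.061 (mean -0.0536 ± 0.0074, SD, n = 3), against -0.014 to 0.019 on the control arrays (exact permutation p = 0.1). Of the strongly repressed probes, 83.8% (254) were called higher and 5.94% (18) lower, and of the moderately repressed probes 61.4% (692) and 8.87% (100), against 22.5% and 16.9% of all probes tested.

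Finer classes showed no steady trend with size. The share kept was 0.661 ± 0.078 for the 2643 probes with a mean of 0.5 to 1, 0.608 ± 0.073 at 1 to 2, 0.748 ± 0.047 at 2 to 3 (178 probes), 0.647 ± 0.054 at 3 to 4 (38 probes) and 0.880 ± 0.018 at 4 or more (20 probes). Downward, it was 0.769 ± 0.073 at -0.5 to -1 (2865 probes), 0.733 ± 0.049 at -1 to -2, 0.661 ± 0.052 at -2 to -3 (257 probes) and 0.746 ± 0.048 at -3 to -4 (45 probes). In each of these 9 classes all 3 GPR124 arrays lay below all 3 control arrays (exact permutation p = 0.1; adjusted p = 0.109 over 12 classes). The 20 most induced probes stood nearest to control, with a mean log ratio of 3.92 ± 0.082 against 4.45 ± 0.045, and 10 of them were called lower, 4 higher and 6 did not pass. The neighbouring 38 probes went from 3.50 ± 0.046 to 2.27 ± 0.19, with 31 called lower and 3 higher. Of all probes tested, 16.9% were called lower and 22.5% higher, and the 20% of the 20 probes called higher lay near that share. With slide as a block in the fit, the 20 and the 38 probes kept 0.949 and 0.663.

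**Figure D2:**
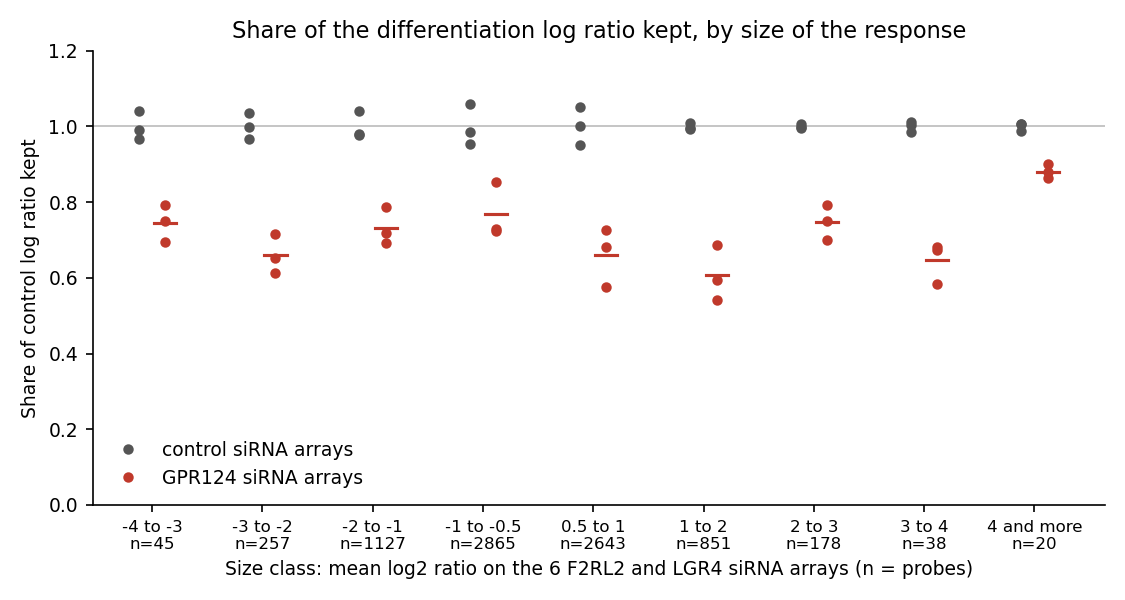
The y axis gives the share of the control log ratio kept, and the x axis the size class by mean log2 ratio on the F2RL2 and LGR4 siRNA arrays, with the number of probes. Points are arrays (grey control, red GPR124 siRNA) and bars are GPR124 means; class means run from 0.608 to 0.880 with no steady rise or fall, and each GPR124 point lies below the control points of its class.

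The difference between strongly and moderately induced probes depended on how the data were processed. With the scanner software's processed signals it was -0.0259, the opposite direction (exact permutation p = 0.4), and with median centring it was 0.0135. When F2RL2 siRNA arrays alone set the size classes it was 0.0219 (exact permutation p = 0.4), and with LGR4 siRNA arrays alone 0.166 (exact permutation p = 0.1). With slide as a block it was 0.138. It was 0.207, 0.208 and 0.215 without F2RL2 siRNA replicate 1, 2 or 3, and 0.0847 and 0.0854 without LGR4 siRNA replicate 2 or 3. The difference between strongly and moderately repressed probes was -0.00011 with the processed signals and -0.0264 with LGR4 siRNA arrays alone setting the classes. With offsets of 0 and 200 it was -0.0324 and -0.0271, and in Cy3 alone -0.0819. A dependence of the share kept on size was therefore not the same under all of these settings, whereas both overall shares stayed below 1 under each setting tried, at 0.598 to 0.767 for induced and 0.616 to 0.747 for repressed probes.

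Expression level was taken as the mean of log2 Cy3 and log2 Cy5 on the same 6 other arrays, and each set was divided into 3 equal parts by it. Dim induced probes (363, level 6.62 to 8.91) kept 0.674 ± 0.075, middle ones (362) 0.687 ± 0.046 and bright ones (362, level 10.98 to 16.65) 0.606 ± 0.064. The bright probes kept less than the dim ones by -0.075, -0.077 and -0.054 on GPR124 replicates 1 to 3, against -0.017 to 0.031 on the control arrays (mean -0.0686 ± 0.013, SD, n = 3; exact permutation p = 0.1). For repressed probes the shares were 0.697 ± 0.048, 0.695 ± 0.052 and 0.751 ± 0.056 from dim to bright. Here the bright probes kept more on each GPR124 array, by 0.073, 0.015 and 0.072, against -0.0045 to 0.0074 on the control arrays (mean 0.0535 ± 0.033, SD, n = 3; exact permutation p = 0.1).

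The share of called probes followed the level on the induced side. Of dim, middle and bright induced probes, 51.8%, 60.5% and 66.0% were called lower and 16.8%, 14.1% and 12.4% higher. Flat probes in the same level ranges were called in either direction at 27.2%, 45.4% and 49.0%, so calls became more frequent with level there as well. Of dim, middle and bright repressed probes, 62.1%, 69.7% and 66.7% were called higher and 3.77%, 9.24% and 11.7% lower. Flat probes in these level ranges were called in either direction at 30.5%, 45.6% and 48.6%.

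Within the moderately induced probes the share kept was lower from dim to bright, with 0.655 ± 0.076, 0.620 ± 0.062 and 0.534 ± 0.081. The strongly induced probes kept 0.732 ± 0.072, 0.779 ± 0.028 and 0.715 ± 0.039, above the moderately induced mean in each part. Moderately repressed probes kept 0.702 ± 0.049, 0.716 ± 0.045 and 0.783 ± 0.062, and strongly repressed ones 0.674 ± 0.042, 0.665 ± 0.062 and 0.697 ± 0.047. After loess, none of these 12 classes had kept the control response: the lowest and the highest of the 12 means were 0.534 and 0.783.

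**Figure D3:**
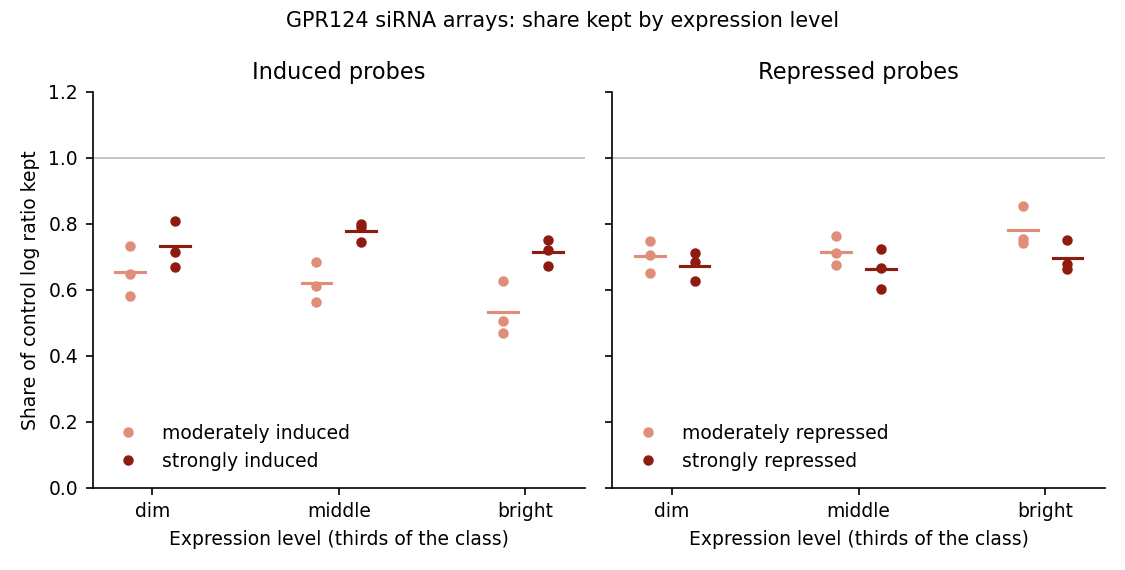
Share of the control log ratio kept on each GPR124 siRNA array (points; bars are means of 3) for dim, middle and bright probes, by size of the response. Means run from 0.534 (bright, moderately induced) to 0.783 (bright, moderately repressed), and 1 marks the control response.

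The relation to level also turned with the processing. For induced probes, bright minus dim was 0.198 with median centring (exact permutation p = 0.1) and 0.175 with the processed signals (exact permutation p = 0.2), both opposite to the value after loess. In Cy3 alone it was -0.0190 and the groups overlapped (exact permutation p = 0.5). Without F2RL2 siRNA replicate 1 it was -0.0445, with an offset of 0 it was -0.0413, with LGR4 siRNA arrays alone setting the size it was -0.118, and with the strict filter -0.138. Bright induced probes kept 0.853 ± 0.17 with median centring, and the highest GPR124 array lay at 1.05. With median centring, flat probes in the dim, middle and bright ranges differed between the groups by 0.00064, 0.16 and 0.18, against 0.036, 0.013 and -0.017 after loess. When the mean of these flat probes was subtracted on each array, the induced shares were 0.651, 0.681 and 0.627 after loess and 0.643, 0.743 and 0.781 after median centring. The repressed shares were then 0.724, 0.697 and 0.734 after loess, so that dim and bright repressed probes lay closer together than without this step, and 0.724, 0.722 and 0.824 after median centring. With the processed signals the dim probes kept least on both sides, 0.480 ± 0.14 for induced and 0.454 ± 0.061 for repressed probes, against 0.655 ± 0.045 and 0.711 ± 0.044 for bright ones. For repressed probes, bright minus dim without that step was positive in the ratio under each setting, up to 0.256 with the processed signals, and -0.0367 in Cy3 alone. It was 0.132 with median centring and 0.0937 with the strict filter.

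**Figure D4:**
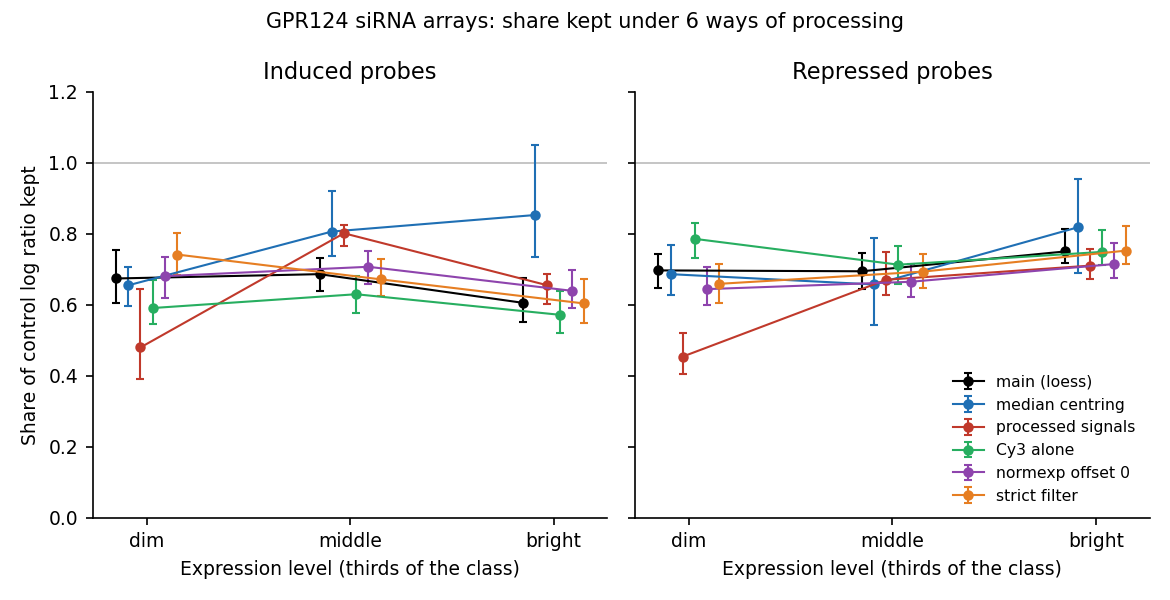
Mean share of the control log ratio kept by the 3 GPR124 siRNA arrays for dim, middle and bright probes under 6 ways of processing (whiskers run from the lowest to the highest array). The order of dim and bright induced probes differs between settings, from 0.674 and 0.606 after loess to 0.655 and 0.853 with median centring, and the dim probes are lowest with the processed signals (0.480 and 0.454).

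Shares were also compared by detection of the weaker channel on the 6 other arrays. The 981 induced probes whose reference signal was well above background on all 6 other arrays kept 0.661 ± 0.061. The 89 detected there on some arrays kept 0.615 ± 0.066, and the 17 detected on none kept 0.646 ± 0.082, for which the log ratio is only a lower bound. The 1270 repressed probes detected in Cy3 on all 6 arrays kept 0.711 ± 0.052, and those detected on some (133) and none (27) kept 0.746 ± 0.040 and 0.792 ± 0.049. These classes do not use detection on the GPR124 and control arrays, where the Cy5 numbers differed. With the strict filter, which keeps probes well above background in both channels on all 12 arrays, 827 induced probes kept 0.672 ± 0.058 and 1233 repressed probes 0.704 ± 0.052.

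Over each whole set, the difference lay mainly in the sample channel. After normalization between arrays, log2 Cy3 of the induced probes differed by -0.61 and log2 Cy5 by -0.083. For the repressed probes, Cy3 differed by 0.42 and Cy5 by -0.077. The reference channel therefore moved the same way for both sets, and by less than the sample channel. This did not hold for weakly detected repressed probes. Those detected in Cy3 on some or none of the 6 other arrays differed by 0.152 and 0.077 in Cy3 and by -0.235 and -0.200 in Cy5. Over the flat probes, Cy3 differed by -0.020 and Cy5 by -0.034.

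The difference was not the same at all probes. Differences between GPR124 and control siRNA had an SD of 1.05 across induced probes, where the median standard error of a probe was 0.11, and an SD of 0.60 across repressed probes (median standard error 0.10). A common share kept would also spread these differences, since control ratios vary, so the SD does not test for uniform scaling. The 262 induced probes called at least 2-fold lower, 24.1% of the set, made up 63.7% of the summed falls, and another 225 (20.7%) differed by no more than 0.25. Among the repressed probes, 262 (18.3%) were called at least 2-fold higher and made up 43.0% of the summed rises, and 316 (22.1%) differed by no more than 0.25. In the other direction, 54 induced probes were called at least 2-fold higher and 28 repressed probes at least 2-fold lower. Over all 32344 probes tested, 869 were called at least 2-fold lower and 596 at least 2-fold higher. Of the flat probes, 1.34% (325) were called at least 2-fold lower and made up 16.9% of their summed falls, and 65.4% lay within 0.25. Probes picked for a large difference hold a large part of such sums by construction.

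Probes called in the direction of a weaker response started far from 0 in control. The 646 induced probes called lower had a median of 1.56 in control and 0.56 under GPR124 siRNA, and the 946 repressed probes called higher went from -1.76 to -1.05. The smaller groups called the other way started nearer 0: the 157 induced probes called higher went from 0.75 to 1.52, and the 118 repressed probes called lower from -1.12 to -1.90. Since control values enter both the starting level and the difference, this order is in part built in. A mean log ratio of the opposite sign to their class was found for 100 induced probes under GPR124 siRNA and 29 under control siRNA, and for 19 and 0 repressed probes.

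The probes given by identifier are the 2 induced probes with the largest fall and the 2 repressed probes with the largest rise, among 498 and 846 probes well above background in both channels on all 6 arrays and with no overlap between groups. Over all probes tested, 21.4% lay lower and 28.4% higher with no overlap. As the 4 probes were picked for their size in these data, their differences and p-values are those of selected extremes. AGPOA3-14136 had a log ratio of 3.90, 3.75 and 3.89 on the control arrays and of -0.13, -0.56 and -0.92 on the GPR124 arrays. The strong induction in control was gone on all GPR124 arrays, a log2 difference of -4.38 (SE 0.27, 20.8-fold; limma adjusted p = 1.73e-07). AGPOA3-21663 went from 2.92, 2.66 and 2.70 to -0.67, -0.99 and -1.54, a log2 difference of -3.83 (SE 0.20, 14.2-fold; limma adjusted p = 4.61e-08). For both probes the reference channel was lower too on the GPR124 arrays, by -1.97 and -1.71 in log2 Cy5, beside -6.36 and -5.54 in log2 Cy3. These 2 probes were also less induced under the other siRNAs, with means of 0.93 and 0.38 under F2RL2 siRNA and 2.64 and 2.12 under LGR4 siRNA.

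Of the repressed probes, AGPOA3-10106 had a log ratio of -4.28, -4.42 and -4.25 on the control arrays and of -1.59, -1.10 and -0.96 on the GPR124 arrays. It stayed repressed, but by far less, with a log2 difference of 3.10 (SE 0.16, 8.58-fold; limma adjusted p = 5.21e-08) that lay in Cy3 (3.08) and not in Cy5 (-0.024). AGPOA3-31713 went from -2.07, -2.17 and -1.88 to -0.11, 0.46 and 0.58, a log2 difference of 2.35 (SE 0.20, 5.12-fold; limma adjusted p = 1.85e-06). Its repression was no longer seen on any GPR124 array, and the Cy5 difference was 0.045. Under F2RL2 and LGR4 siRNA these probes had means of -2.76 and -1.63, and of -1.91 and -1.37.

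The share kept was set beside that of the other siRNAs, using classes drawn from the arrays of 1 siRNA to compare the other 2, with shares of control in both. With classes from F2RL2 siRNA, induced probes (1131) kept 0.639, 0.711 and 0.589 on the GPR124 arrays and 1.00, 1.01 and 0.954 on the LGR4 arrays. The GPR124 arrays lay below all LGR4 arrays, with a difference of -0.341. Repressed probes (1642) kept 0.752, 0.685 and 0.657 against 0.861, 0.797 and 0.767, closer together but without overlap, a difference of -0.111. With classes from LGR4 siRNA, induced probes (1156) kept 0.654 ± 0.061 under GPR124 siRNA and 1.01 ± 0.0052 under F2RL2 siRNA, and repressed probes (1320) 0.735 ± 0.050 and 0.984 ± 0.046. The exact permutation p of each of these 4 differences was 0.1, adjusted p = 0.109 over 12 tests. In 1 of the 12, the moderately repressed probes against LGR4 siRNA, the arrays overlapped (0.718 ± 0.049 against 0.805 ± 0.052; exact permutation p = 0.2).

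LGR4 siRNA replicates 1 and 2 shared slide 2 with F2RL2 siRNA replicates 2 and 3, so slide also enters the comparison of the siRNAs. LGR4 siRNA replicate 3 lay on slide 3 with the GPR124 arrays. Its share of 0.954 for induced probes was the lowest of the 3 LGR4 arrays and above all GPR124 arrays. For repressed probes its share of 0.767 was also the lowest of the LGR4 arrays and close to the highest GPR124 array at 0.752. With slide as a block in the fit, the induced probes kept 0.693 and the repressed probes 0.694 of the control response. No slide held both groups, so this fit ties them only through the F2RL2 and LGR4 siRNA arrays. F2RL2 siRNA replicate 1 alone ties slide 1 to slide 2. LGR4 siRNA replicate 3, with 335 spots marked as outliers, alone ties slide 3.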

How the data were processed

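Agilent Feature Extraction 9.5.3.1 quantified the spots, per the file headers. Of the deposited intensity columns, the analysis started from the median signal and median background of each channel, not normalized. The deposited processed signal intensity (background-subtracted and dye-normalized, per the file headers) was an alternative. The deposited log10 ratio, Cy5 over Cy3, was used to check direction. The authors' value table holds log2 Cy3 over Cy5 of the processed signals (largest difference 5e-10), with medians of 0.10 to 0.16 on control and -0.28 to -0.18 on GPR124 arrays, so scale and direction are known and no further centring was found. How the authors compared groups is not given in the sources used here.

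Signals were background-corrected with normexp (offset 50), normalized within arrays by loess with 1417 control spots at weight 0, and left out where marked as outliers. A probe was kept if at least 3 of 12 arrays had it well above background in 1 given channel (32346 probes). They were fitted with limma 3.58.1 in R 4.3.3 over all 12 arrays. The fit and the class means were tested on simulated data with independent noise at each probe and no slide effect. The simulated F2RL2 and LGR4 siRNA arrays had the control means, so that test does not bear on slide or on effects of those siRNAs. Class values were compared over arrays by 2-sided exact permutation. The groups share replicate numbers, but the deviations of same-numbered arrays correlated at -0.17, -0.19 and 0.13, so the numbers were not treated as pairs.

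Members, classes and tests were chosen with earlier results of these data known. With no gene names, the rule for named probes took the 2 largest falls among induced probes called lower and the 2 largest rises among repressed probes called higher. Alternatives were the normexp offset, processed signals, median centring, Cy3 alone after Aquantile normalization, the filter on dim probes (none, or well above background in both channels on all 12 arrays, the strict filter), outlier spots, slide or replicate as a block, the 6 arrays alone, the arrays that set size, Cy5 level, and each array left out. A background set from the negative control spots was added after seeing the data, as were the shares by size and level under each setting.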

Additional observations from a re-analysis of the deposited data

Results flagged for a closer look

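On the GPR124 siRNA arrays, 12, 12 and 10 of 153 negative control spots lay well above background on replicates 1 to 3, against 2 to 3 on the control siRNA arrays. The other array of the same slide, LGR4 siRNA replicate 3, had 17, and the 8 arrays of the other slides 1 to 4. Raising the background by the negative control signal left 12758 probes called against 12748.

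In 4 of 12 comparisons of the share of the control log ratio kept, all GPR124 arrays lay below 1, the control response, and all arrays of the other siRNA above it. In the other 8, at least 1 array of the other siRNA also lay below 1. With classes from F2RL2 siRNA, moderately induced probes kept 0.621, 0.717 and 0.575 on the GPR124 arrays and 1.04, 1.06 and 1.00 on the LGR4 arrays, a difference of -0.396. With classes from LGR4 siRNA, GPR124 minus F2RL2 siRNA was -0.358 for induced, -0.418 for moderately induced and -0.254 for strongly induced probes, for which the F2RL2 arrays kept 1.01 to 1.02. Each of these had an exact permutation p of 0.1, the smallest possible with 3 arrays against 3, and adjusted p = 0.109. In these 4 comparisons the shares of the other siRNA lay close to the control response, so this count of arrays above 1 rests on small distances. Not all shares lay so close: with classes from F2RL2 siRNA, repressed probes kept 0.809 ± 0.048 under LGR4 siRNA.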

How the results depend on the processing

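The 4 named probes kept direction and stayed called under all alternatives run. They were picked as called extremes of the same arrays, so this is in part built in. The differences and overall shares of induced and repressed probes kept their direction; their exact tests cannot pass the threshold under any setting. The differences were -0.61 to -0.35 for induced and 0.44 to 0.69 for repressed probes. Strongly minus moderately induced probes reversed with the processed signals (-0.0259). Bright minus dim induced probes reversed with the processed signals (0.175) and median centring (0.198), and bright minus dim repressed probes in Cy3 alone (-0.0367). With slide as a block, which gives 1 fitted value and no array spread, 2628 instead of 12748 probes were called between GPR124 and control siRNA, and 13613 instead of 20437 between control siRNA and the reference. Strongly minus moderately repressed probes then came to -0.0679, bright minus dim induced to -0.0357 and bright minus dim repressed to 0.0166. The cause of these changes was not tested. Leaving out 1 array at a time gave 10445 (without GPR124 siRNA replicate 3) to 13561 (without GPR124 siRNA replicate 1) called probes, induced shares of 0.624 to 0.685 and repressed shares of 0.688 to 0.737. With replicate number as a block, 11898 probes were called, and the shares kept were 0.657 and 0.715 (exact paired permutation p = 0.25, the smallest possible for 3 pairs); the block changed no call of a named probe, and the arrays share only a number. Signal close to background limits the dim classes.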
